A study of Zanthoxylum armatum with 15 samples.

Results

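The leaf bud-restricted unigenes were the assembled transcripts of Zanthoxylum armatum, green Sichuan pepper, whose level in every leaf bud (LB) library was well above that in any library of another organ. Nearly all of them were also counted at low levels elsewhere, mostly in stems. A unigene was taken when its identifier began with Cluster-12235, when its lowest level in the 3 LB libraries was at least 2 CPM (the count scaled so that every library sums to the same total), and when that level was at least 8 times the highest level in any of the other 12 libraries. The rule was met by 162 of the 79040 unigenes of Cluster-12235, among 111318 unigenes in all, and 30969 of the 79040 met the first limit. The study sequenced RNA of 5 organs of the variety 'Hanyuan putaoqing', namely fruits (Fr), leaf buds, mature leaves (ML), roots (Ro) and stems (St), with 3 libraries each. Every library held material of 3 plants mixed together, the trees were 3 years old, and no treatment or genotype separated the groups, so that organ was the only stated difference. The p-values below measure the spread between these pooled samples.

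Because the rule used the LB level and its ratio to every other library, the height of the members in LB is a description and was not tested. The comparisons that the rule left free were those among the other 4 organs and of the transcripts themselves (annotation, length, place in the identifier series). Differences among the 3 LB libraries were free only in part, since both limits act on the lowest of them. The members' differences among the other organs were fitted without the LB libraries.

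A leaf bud encloses the shoot tip and leaves that have not yet unfolded, so that dividing cells and young epidermis make up much of its tissue. Young epidermis lays down a cuticle, in which cutin and waxes are built from fatty acids: 3-ketoacyl-CoA synthases (KCS) lengthen the chains, glycerol-3-phosphate acyltransferases (GPAT) join fatty acids to glycerol, and HOTHEAD, known from Arabidopsis thaliana, acts on long-chain fatty acids of the cuticle and keeps young organs from fusing. Young shoots of many trees are also reddened by anthocyanins, which need anthocyanidin synthase (ANS). These are roles known from other plants and not results of these libraries.

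The totals of the 15 libraries ran from 18802274 to 24081708 counts, and those of the 3 LB libraries from 21793417 to 24081708. The stem libraries carry another 2-letter sample code inside their tables than in the labels, and the labels' organ was used. As a check of the labels, 13 of the 19 tested unigenes on the held part of the study's DNA replication list had their highest TMM-scaled mean in LB, against 21.1% of all tested unigenes. On the held parts of its photosynthesis and antenna protein lists, 14 of 16 and 17 of 18 had theirs in ML, against 14972 of all 57488 tested. On the unscaled CPM used elsewhere in the text, 14 of 19 were highest in LB, against 29.7% of all. In ML the counts were then 13 of 16 and 16 of 18, against 8677 of all 57488. No pair of libraries was a copy of another.

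The members made up 1.49%, 1.06% and 1.17% of all counts in LB replicates 1, 2 and 3. In the stem libraries they made up 0.0537%, 0.0448% and 0.0576%, in fruits 0.0105% to 0.0126%, in mature leaves 0.0113% to 0.0119%, and in roots 0.00369% to 0.00396%. The mean LB level of a member ran from 3.04 to 1055 CPM with a median of 16.3 CPM. It was 100 CPM or more in 27 members and under 10 CPM in 62. The 10 most abundant members held 52.4% of the members' summed LB level, so the summed level speaks mostly for those few.

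**Figure D1:**
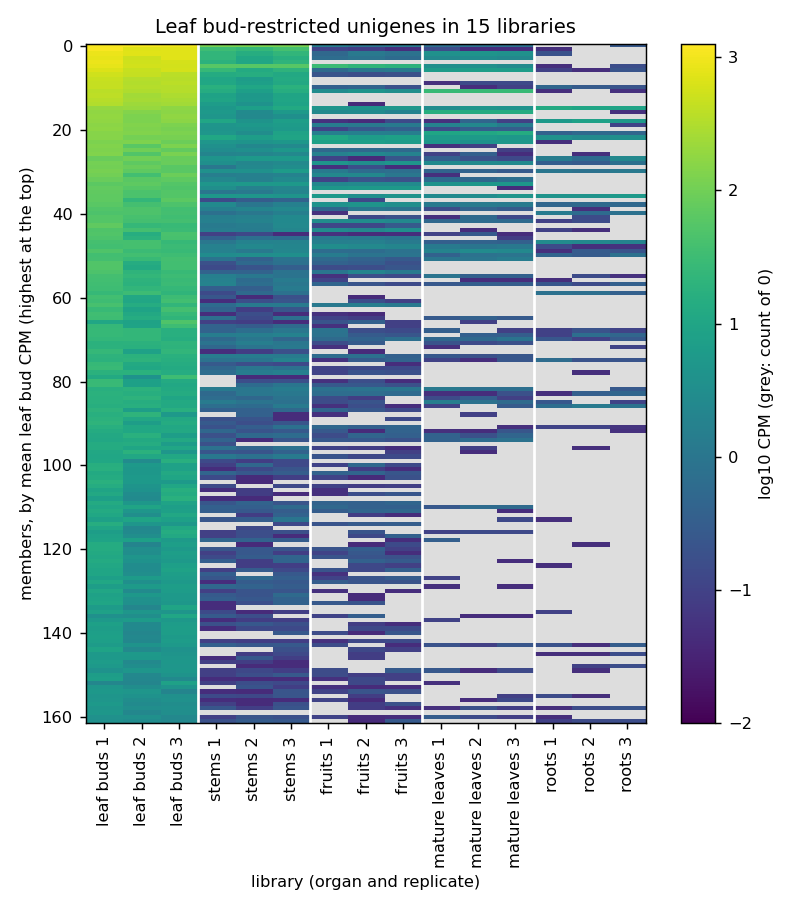
Level of each of the 162 members (1 line each, ordered by mean leaf bud CPM) in each of the 15 libraries (columns, by organ and replicate), as log10 CPM, with a count of 0 in grey. The members are bright in the 3 leaf bud columns by the rule, weak in nearly all stem columns, and grey in most of the root columns, where 104 members had a count of 0 in all 3 libraries.

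A KEGG name or pathway was given for 9 of the 162 members in the study's supplementary lists, and 153 had none there. Of the 9 members, 5 stood in the lists for fatty acid elongation or for cutin, suberine and wax biosynthesis, and a sixth was named GPAT. The remaining 3 were an anthocyanidin synthase, an ornithine decarboxylase and a unigene of the ascorbate and aldarate list. The lists were held only in part, so these counts are lower limits of what the annotation gives. Names were given only for unigenes that the study had picked as organ-specific, or as higher or lower in fruits, in these same libraries. The held part of its leaf bud rows included 4 of the members. Which pathways the 9 stand in thus partly follows from that choice, and no share over all annotated unigenes was taken.

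ANS makes the coloured anthocyanidins from leucoanthocyanidins and was the most abundant annotated member. Cluster-12235.40481, named ANS, was at 801, 566 and 577 CPM in LB replicates 1, 2 and 3 and at 60.3, 58.6 and 59.2 CPM in St. It was at 30.6, 21.5 and 18.8 CPM in Fr, at 3.40, 3.64 and 2.77 CPM in ML, and at 0.0479, 0 and 0.160 CPM in Ro. The 4 organs outside LB did not overlap with each other, with stems highest, fruits next, mature leaves below and roots at the level of single reads. In edgeR's quasi-likelihood test without LB, St exceeded ML by 3.78 ± 0.20 on the log2 scale (SE, n = 3 and 3, adjusted p = 6.22e-12) and Fr by 1.04 ± 0.16 (adjusted p = 3.58e-05). The latter difference fell under the 2-fold limit when Fr replicate 2 (0.97) or Fr replicate 3 (0.90) was left out. Per length, its LB level was 599 ± 116 FPKM (SD, n = 3; counts scaled to transcript length and library size), the highest of the 9.

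KCS enzymes carry out the first and rate-limiting step of each round of fatty acid elongation. Cluster-12235.57397, named KCS, was at 54.8, 42.1 and 34.6 CPM in LB and at 1.59, 1.71 and 2.68 CPM in St, while no library of Fr, ML or Ro exceeded 0.560 CPM. Its St libraries lay above all 9 libraries of the other 3 organs, by 3.87 ± 0.72 over Fr (log2, SE, adjusted p = 0.000205, edgeR) and 2.56 ± 0.63 over ML (adjusted p = 0.00192). Without its St libraries it would not have passed the filter on low counts, so these differences describe it and are no separate support. A second KCS, Cluster-12235.10961, was low everywhere, at 8.33, 4.74 and 4.53 CPM in LB, 0.141, 0.0428 and 0.0895 CPM in St, and 0 in all libraries of Fr and ML. It did not pass the filter on low counts. Cluster-12235.35313, from the same elongation list and with no name there, was at 53.7, 37.4 and 37.5 CPM in LB and higher in Fr (3.22, 3.23 and 2.44 CPM) than in ML, where it stayed under 0.63 CPM. Its Fr and St libraries (1.64, 1.89 and 2.59 CPM) overlapped.

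HOTHEAD was represented by a pair of members, both of which had fruits as their next organ. Cluster-12235.21198 was at 76.3, 56.1 and 49.2 CPM in LB, at 5.06, 5.62 and 5.65 CPM in Fr and at 3.33, 1.71 and 2.19 CPM in St. Cluster-12235.55685 was at 48.9, 37.9 and 30.4 CPM in LB, at 3.02, 2.43 and 3.43 CPM in Fr and at 1.45, 1.41 and 2.19 CPM in St. In both, Fr and St did not overlap, and ML and Ro were at or near 0, with no library above 0.0959 CPM. The stems lay below the fruits by a log2 difference of -1.46 ± 0.27 for the first (SE, n = 3 and 3, adjusted p = 0.000259, edgeR) and of -1.09 ± 0.31 for the second (adjusted p = 0.00811). The second difference fell under the 2-fold limit without Fr replicate 3 (-0.98), St replicate 1 (-0.99) or St replicate 2 (-0.97). Cluster-12235.5662, named GPAT, was at 7.0, 6.06 and 6.84 CPM in LB and 0.515, 0.428 and 0.313 CPM in St. It had a count of 0 in all Fr and Ro libraries and did not pass the filter.

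Ornithine decarboxylase makes putrescine, the precursor of the polyamines, from ornithine. Cluster-12235.12056, the member of that name, was at 160, 133 and 126 CPM in LB and at 4.64, 5.31 and 6.4 CPM in St. Its St libraries lay above those of ML (1.85, 2.43 and 1.41 CPM), of Fr (1.13 to 1.36 CPM) and of Ro (0 to 0.106 CPM). St exceeded ML by 1.12 ± 0.27 (log2, SE, adjusted p = 0.00193, edgeR), which fell under the 2-fold limit without ML replicate 3 (0.95) or St replicate 3 (0.99). Cluster-12235.47982, of the ascorbate and aldarate list, was the annotated member most evenly present elsewhere. It was at 149, 110 and 114 CPM in LB and between 2.72 and 11.2 CPM in every other library, and its St, Fr and ML libraries lay close together, with overlap of St and Fr.

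**Figure D2:**
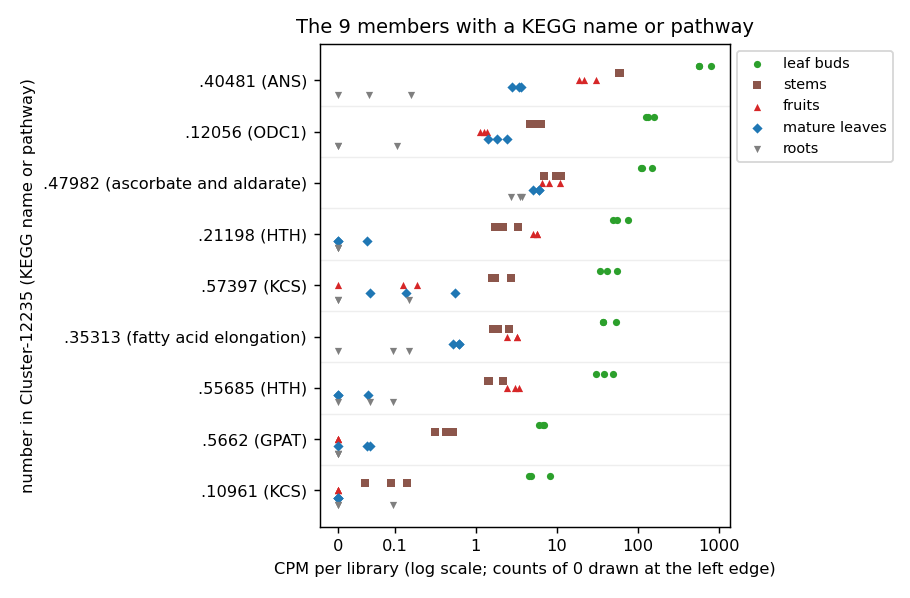
CPM in each library (points, log axis, counts of 0 at the left edge) of the 9 members with a KEGG name or pathway, by organ, with 3 libraries an organ. Leaf buds lie apart by the rule; stems follow for ANS, ODC1, KCS and GPAT, and fruits lie above stems for both HTH members.

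Other unigenes of the same pathways were looked at in a fit of all 15 libraries, where a unigene was called when LB exceeded each of the other 4 organs at an adjusted p below 0.05 and by over 2-fold. Of all 57488 unigenes tested, 4.33% were called higher in LB in this way and 2.1% lower. On the fatty acid elongation list 6 of 18 tested unigenes were called higher and 0 lower, and 3 of the 6 were members, whose call follows from the rule. On the cutin, suberine and wax list 4 of 30 were called higher and 2 lower, and 2 of the 4 were members. On the brassinosteroid list 2 of 16 and on the zeatin list 3 of 17 were called higher, with 0 and 2 lower, and no member was on either. The phenylpropanoid list had 3 of 66 higher and 10 lower. Of these 5 lists, all but the brassinosteroid list also held unigenes that the study had picked as organ-specific in these same libraries. The study's pathway annotation counts 343 phenylpropanoid, 85 zeatin, 54 elongation and 45 cutin, suberine and wax unigenes, of which only a part was held. The brassinosteroid list was held whole, with 17 unigenes. The annotation gave 20 of the 72 phenylpropanoid and 21 of the 33 cutin, suberine and wax unigenes used. It gave 21 of the 28 zeatin and 20 of the 23 elongation unigenes used. Shares and medians of these 4 lists thus partly follow from the study's choice and do not speak for whole pathways. The median over a list of the smallest of the 4 log2 differences was -0.18 for fatty acid elongation, -3.33 for cutin, suberine and wax, -0.30 for brassinosteroids, -1.16 for zeatin and -6.59 for phenylpropanoids, against -0.61 over all tested unigenes. In this TMM-scaled fit, most tested unigenes of each of these 5 lists, as held, were therefore lower in LB than in some other organ. The DNA replication list, held for 20 of 104 unigenes and with no member, went the other way. Of its tested unigenes 8 of 19 were called higher in LB and 0 lower, with a median of 0.80. Its count fell to 4 when LB replicate 2 was left out. On unscaled CPM, 10 of 18 elongation and 8 of 16 brassinosteroid unigenes had their highest mean in LB, against 29.7% of all tested. The same held for 7 of 30 cutin, suberine and wax, 4 of 17 zeatin and 7 of 66 phenylpropanoid unigenes.

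The members with the highest LB level per length had no KEGG name in the lists. Cluster-12235.12236 led with 2807 ± 603 FPKM in LB (SD, n = 3), and was at 1106, 710 and 754 CPM there. Its St libraries were at 33.5, 24.9 and 38.8 CPM and none of the other 9 libraries exceeded 0.150 CPM. Stems were thus the only other organ with more than a trace, and Ro held 1 count in all. St exceeded Fr by 8.33 ± 0.33 and ML by 8.19 ± 0.33 (log2, SE, larger adjusted p = 2.9e-13, edgeR). This member passed the filter on low counts only through St, so St had to be higher. The differences and the p-value therefore describe it and are no separate support.

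Of the next 9 members by LB FPKM, 5 were counted in LB and St and almost not at all elsewhere. Cluster-12235.11934 was at 886, 542 and 583 CPM in LB and 19.3, 10.3 and 20.9 CPM in St, with a count of 0 in all 9 libraries of Fr, ML and Ro. Set against 3 counts over the 3 libraries of an organ, its St level was at least 359-fold higher than Fr, 353-fold higher than ML and 333-fold higher than Ro. The same all-or-none pattern was seen in Cluster-12235.70590 (466, 333 and 351 CPM in LB, 10.5, 6.52 and 13.2 CPM in St), Cluster-12235.12217 (362, 262 and 273 CPM in LB, 9.37, 5.48 and 10.1 CPM in St) and Cluster-12235.70442 (394, 251 and 302 CPM in LB, 8.76, 5.23 and 9.58 CPM in St). Cluster-12235.11699 differed from them by 1 low value, 0.0420 CPM in Fr replicate 2. In these 5 the stem mean was between 2.49% and 2.78% of the LB mean, and in each of them LB replicate 1 was the highest LB library and St replicate 2 the lowest St library.

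The other 4 were present at low levels in further organs. Cluster-12235.12239 was at 454, 344 and 336 CPM in LB and 17.3, 10.6 and 18.0 CPM in St, and reached 0.479 CPM in Ro. Fruits lay about as far below its stems as roots did, with log2 differences of 5.255 for St over Fr and 5.453 over Ro, against 7.792 over ML. Cluster-12235.70547 was at 819, 503 and 754 CPM in LB, 22.7, 11.1 and 16.6 CPM in St and 2.45, 3.04 and 2.41 CPM in ML. Cluster-12235.11767 was at 673, 472 and 592 CPM in LB, 26.0, 13.3 and 20.2 CPM in St and 6.30, 6.86 and 6.68 CPM in ML. For the last, the excess of St over ML, 1.18 ± 0.22 (log2, SE, adjusted p = 0.000137, edgeR), fell to 0.95 without St replicate 1. Cluster-12235.12123, the member with the highest mean LB CPM, stood apart with 113, 117 and 115 CPM in St, 10.9% of its LB mean of 1055 ± 76 CPM (SD, n = 3), and stayed at or below 1.41 CPM in the 9 other libraries.

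A total of 112 members had the highest of their 4 other organ means in St, 32 in Fr, 10 in ML and 6 in Ro, and 2 had no count outside LB. The St mean was 2.82% of the LB mean in the median member (quartiles 1.62% and 4.38%), the Fr mean 0.890% (quartiles 0.107% and 2.51%), the ML mean 0.00471% and the Ro mean 0%. Each of the 4 organs had at most 10.9% of the LB mean in any member, which the rule's ratio nearly fixes, whereas the order of the organs was free. All 3 stem libraries lay above all 9 libraries of the other 3 organs in 57 of the 162 members, against 8.81% of the 107219 unigenes counted anywhere outside LB. The same held for the fruits in 8 members (3.74% of those unigenes), for the mature leaves in 4 (9.42%) and for the roots in 0 (14.1%). In whole organs, fewer cells of a type and less RNA per cell cannot be told apart.

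**Figure D3:**
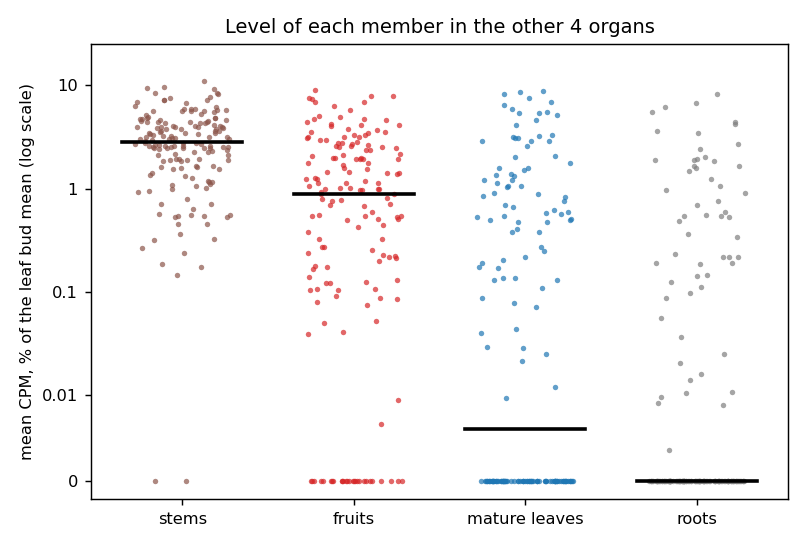
Mean CPM of each of the 162 members (points) in stems, fruits, mature leaves and roots, as a percentage of its leaf bud mean on a log axis, with 0 at the lower edge and the median as a black bar. The medians stand at 2.82% in stems and 0.890% in fruits, and many points lie at 0 in mature leaves (81 members) and roots (104 members).

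A count of 0 in all 3 libraries was found for 104 members in Ro, 81 in ML, 27 in Fr and 2 in St, where 3 counts over an organ's libraries correspond to 0.0448 CPM in St and up to 0.0501 CPM in Ro. The 2 members absent from all 12 other libraries were low in LB too. Cluster-12235.75161 was at 7.90, 2.37 and 6.10 CPM in LB, and Cluster-12235.10636 at 4.94, 2.28 and 3.35 CPM. In both, replicate 2 was the lowest LB library, and the limit of detection elsewhere is a larger share of the LB level than for the abundant members.

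In the fit of the 12 libraries outside LB, 73 of the 162 members passed the filter on low counts and 89 did not. Of the 73, 22 reached the filter's minimum in the libraries of 1 organ only and so had to differ from the other organs. Of the 73, 72 passed the test of any difference between the 4 organs (adjusted p below 0.05), where 78.0% of all 54286 tested unigenes did so. Among the 51 members that reached the minimum in 2 or more organs, 50 passed. The exception was Cluster-12235.11980, at 2.65 to 5.69 CPM in all 12 libraries (adjusted p = 0.647, edgeR).

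Stems against roots gave the most one-sided split. St was higher in 66 of the 73 members and lower in 0, where 17.1% of all tested unigenes were higher and 19.7% lower. The median log2 difference of the 73 was 6.50, or 4.68 with the 29 members at 0 in Ro set to 3 counts, against -0.09 over all tested unigenes. Against ML, St was higher in 53 members (15.6% of all tested) and lower in 4 (19.0%), with a median of 2.85 against -0.10 over all. Against Fr, St was higher in 48 (10.8%) and lower in 4 (12.6%), with a median of 2.34 against -0.04 over all. Members that reached the filter's minimum in 2 or more organs numbered 51, and among these St was higher than Ro in 44, than ML in 32 and lower in 4, and than Fr in 26 and lower in 4. The members that passed did so mostly through St, so the counts over the 73 describe them and do not speak for the 89.

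Mature leaves came next after LB in a few abundant members. Cluster-12235.18632 was at 381, 309 and 347 CPM in LB and at 27.7, 29.0 and 27.8 CPM in ML, above its St libraries at 14.4, 7.45 and 15.3 CPM and its Fr libraries at 3.02 to 4.28 CPM. Cluster-12235.58643 was at 182, 144 and 162 CPM in LB and at 15.6, 13.5 and 13.6 CPM in ML, above St at 5.76, 2.78 and 5.46 CPM. In both, the St and ML libraries did not overlap, with a log2 difference of St from ML of -1.59 ± 0.20 (SE, adjusted p = 1.30e-06, edgeR) and -2.01 ± 0.23 (adjusted p = 3.95e-07). Both were at or near 0 in Ro, with no library above 0.0532 CPM. The neighbouring identifier Cluster-12235.58644, named here after its values were seen, had the same order, with 152, 135 and 123 CPM in LB, 10.1, 11.7 and 13.7 CPM in ML and 4.69, 3.17 and 8.68 CPM in St. Whether the 2 identifiers are copies or pieces of 1 gene cannot be read from the tables.

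Roots came next after LB in 6 members, the most abundant of which was Cluster-12235.70629, also named after its values were seen. It was at 194, 202 and 169 CPM in LB, 12.4, 9.81 and 8.88 CPM in Ro, 4.97, 7.62 and 12.4 CPM in St, and 3.0 to 4.86 CPM in Fr and ML. Its Ro and St libraries overlapped and their difference did not pass the test (log2 difference of St from Ro -0.35 ± 0.24, SE, adjusted p = 0.221, edgeR).

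The 3 LB libraries did not carry the members at the same level. LB replicate 1 was the highest of the 3 in 124 of the 162 members and replicate 2 the lowest in 109, whereas among the 30969 Cluster-12235 unigenes with at least 2 CPM in every LB library replicate 1 was the highest in 30.8% and replicate 2 the lowest in 31.9%. The median coefficient of variation over the 3 libraries was 28.5% in the members and 9.85% in those unigenes. Replicate 2 was below 50% of replicate 1 in 66 members (40.7%) and in 152 of the 30969 (0.491%), so 43.4% of all such unigenes were members. The reverse, replicate 1 below 50% of replicate 2, occurred in 0 members and in 10 of the 30969. The rule reads the lowest LB library, so replicate 2 set the limit for most members, and 255 unigenes met the rule without it in place of 162.

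**Figure D4:**
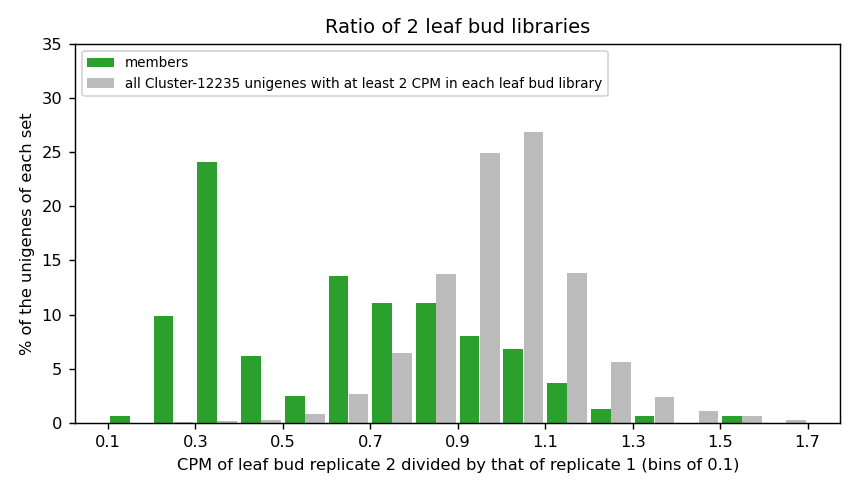
Ratio of the CPM in leaf bud replicate 2 to that in replicate 1, in bins of 0.1, as a percentage of the 162 members (green) and of the 30969 Cluster-12235 unigenes with at least 2 CPM in each leaf bud library (grey). The grey bars peak at 1 to 1.1, while the members form 2 groups, with 39 members at 0.3 to 0.4 and 4 at 0.5 to 0.6 between them and the rest.

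The ratio of replicate 2 to replicate 1 split the members into 2 groups with few between, and the boundaries of 0.45 and 0.55 were set after the values were seen. In 63 members the ratio was below 0.45 (median of the class by library 13.4, 4.57 and 11.6 CPM in LB replicates 1, 2 and 3). In 94 members it was 0.55 or more (medians 30.0, 24.2 and 26.0 CPM), and 5 lay between. Replicate 3 relative to replicate 1 had a similar median in both classes, 0.740 in the first and 0.770 in the second, so the medians parted by replicate 2. Its spread was wider in the first class (quartiles 0.556 and 0.924) than in the second (0.667 and 0.867). The first class summed to 1578, 546 and 1270 CPM in LB and the second to 13240, 10010 and 10390 CPM.

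The classes also differed outside LB. The first class had a count of 0 in all Ro libraries in 60 of its 63 members and in all ML libraries in 54, and its members summed to 17.7, 20.0 and 25.1 CPM in St and 12.9, 16.8 and 12.6 CPM in Fr, but to 0.677, 1.27 and 0.675 CPM in ML and 0.0479, 0.0991 and 0 CPM in Ro. In this class every summed St library lay above every summed Fr library, and St was the next organ in 40 members and Fr in 21. The median member was at 1.64% of its LB mean in St and at 0.889% in Fr. The second class had a count of 0 in Ro in 41 of its 94 members and in ML in 24, and summed to 515, 427 and 549 CPM in St, 92.3 to 112 CPM in Fr, 112 to 117 CPM in ML and 36.6 to 39.2 CPM in Ro. The first class was also the less abundant in LB, as the medians by library given above show. The limit of detection in another organ was thus a larger share of the LB level for its members. A count of 0 was therefore easier to reach in the first class at the same share of the LB level. The counts of 0 were not compared at matched LB levels, so they do not by themselves separate the classes. All 9 members with a KEGG name or pathway belonged to the second class. Only 8 members of the first class passed the filter of the 12-library fit, and 63 of the second. The classes were set from the values and are described without a test, and what differs in LB replicate 2 was not tested.

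**Figure D5:**
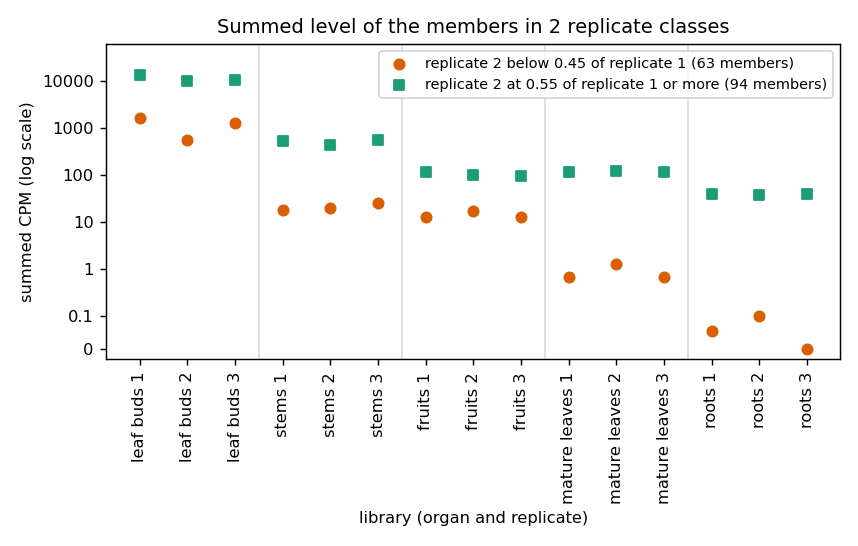
Summed CPM (log axis, 0 at the lower edge) of the 63 members with leaf bud replicate 2 below 0.45 of replicate 1 (circles) and of the 94 members at 0.55 or more (squares), in each of the 15 libraries. The first class drops from 1578 to 546 CPM between leaf bud replicates 1 and 2, has 12.6 to 25.1 CPM in stems and fruits, and is near or at 0 in roots.

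The most abundant members of the first class, chosen by that rank after the classes were set, show the pattern by library. Cluster-12235.12235 was at 136, 61.1 and 126 CPM in LB, 3.70, 2.26 and 2.46 CPM in St, and 0 in all Fr and Ro libraries. Cluster-12235.22237 was at 136, 51.9 and 119 CPM in LB, 1.97, 2.06 and 2.42 CPM in St, and 1.77, 2.27 and 1.85 CPM in Fr. In Cluster-12235.14198, at 104, 36.7 and 91.2 CPM in LB, Fr (2.45, 2.39 and 1.06 CPM) overlapped with St (1.5, 1.67 and 1.84 CPM). All 3 had LB replicates 1 and 3 close together and replicate 2 well below. Over the whole class replicate 3 was often lower too, with a lower quartile of 0.556 of replicate 1. Of all 162 members, replicate 3 was below 50% of replicate 1 in 15 (9.26%), against 0.226% of the 30969 unigenes at the same floor. A few members were instead high in LB replicate 3, which was more than 2 times replicate 1 in 6 of them (3.7%, against 0.765%). The furthest was Cluster-12235.10492, singled out for this value, at 10.3, 8.76 and 49.2 CPM in LB.

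The length implied by count and FPKM was 968 bases in the median member (quartiles 507 and 1626), against 1326 bases (quartiles 683 and 2175) in the Cluster-12235 unigenes at the same floor. Counts were whole numbers in all 3 LB libraries in 75.9% of the members and in 48.9% of those unigenes. In estimated counts a fraction can arise when reads are divided between similar transcripts, and how the reads of these members were divided is not stated. The identifiers were bunched. Numbers 9000 to 12999 within Cluster-12235 held 88 of the 162 members (54.3%) but 4.03% of the unigenes at the same floor, and numbers 70000 to 72999 held 29 (17.9%) against 2.52%. These blocks were picked after the numbers were seen, and the sources used here do not say what the order of the numbers stands for. Of the first block's members, 35 were of the class with a low replicate 2 and 49 of the other, so both classes were bunched there.

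At the edges of the rule the members passed into their neighbours without a gap. The lowest ratios to the highest other library among members were 8.043 for Cluster-12235.6208 and 8.043 for Cluster-12235.70479. The highest just outside were 7.982 for Cluster-12235.73983 and 7.978 for Cluster-12235.9178. The lowest LB levels inside the floor were 2.019 CPM for Cluster-12235.7696 and 2.035 CPM for Cluster-12235.71873, and those just outside were 1.993 CPM for Cluster-12235.18492 and 1.927 CPM for Cluster-12235.72248. A ratio limit of 4 in place of 8 gave 334 unigenes and one of 16 gave 67.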

How the data were processed

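RNA of 5 organs was sequenced on an Illumina platform, 3 libraries each, and assembled de novo with Trinity from all libraries, with the longest transcript of a gene kept as its unigene. Per the labels, CASAVA 1.8 was among the tools; neither the aligner nor the counter is named in the sources used here. The authors deposited for each library estimated counts of reads, some of them fractional, for every unigene and FPKM values, which the authors scaled to length and library size. Counts were rounded for tests. CPM was taken from the unrounded counts and the column total, with no correction for composition.

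Members and lists were chosen with earlier results of these data known. Genes are named by these rules: the 10 members with the highest mean LB FPKM, every member with a KEGG name or pathway in the study's supplementary lists, the 5 members called among the other organs with the widest range of organ means, members without a count outside LB, and the 2 unigenes on each side of each limit. Others are marked as chosen after their values were seen. Tests used edgeR 4.0.16 in R 4.3.3 (TMM scaling, filterByExpr, quasi-likelihood F-test, Benjamini-Hochberg adjustment over all tested unigenes), with adjusted p below 0.05 and, for pairs of organs, a log2 difference over 1. The fit was tested on simulated data. Alternatives were another scaling, other filters, DESeq2 1.42.0, a replicate block, all 15 libraries in 1 fit and leaving out each library. Columns of sequence were not used here. Limits given as 3 counts cover counting error only.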

Additional observations from a re-analysis of the deposited data

Results flagged for a closer look

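Outside Cluster-12235, 35 further unigenes met both limits of the rule, a signal that the comparisons above do not use. They summed to 303, 141 and 218 CPM in LB replicates 1, 2 and 3, to 4.78, 6.17 and 5.59 CPM in St, and to 0.25, 0.327 and 0.591 CPM in ML. In 20 of the 35 (57.1%) LB replicate 2 was below 50% of replicate 1.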

How the results depend on the processing

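Under the other scalings, filters and tools, and with each library left out, the number of members called stayed within 1.5 times except as follows. Without a filter on low counts, 160 members were tested, and 123 differed among the 4 organs, 91 between St and ML and 109 between St and Ro, in place of 72, 57 and 66. With all 15 libraries in 1 fit, all 162 were tested because LB carried them past the filter, and the counts were 122, 92 and 114. Among members that reached the minimum in 2 or more organs, an alternative chosen after seeing the data, 36 differed between St and ML and 30 between St and Fr, in place of 57 and 52. Leaving out a library gave 73 to 80 among the 4 organs, 57 to 64 for St and ML, 65 to 74 for St and Ro, and 48 to 53 for St and Fr. The unigenes higher in LB than in each other organ numbered 2491, 3852 without a filter, and 2264 to 3292 with a library left out. The rule gave 334 unigenes at a ratio of 4, 67 at 16, 130 with TMM-scaled libraries, and 162 to 255 with a library left out, the highest without LB replicate 2. Replicate numbers did not pair the organs (correlation of deviations -0.143 to 0.0759 over 18 same-number pairs of Fr, ML, Ro and St libraries, and -0.0356 to 0.0434 over the 12 pairs with an LB library), and a replicate block gave 72, 57, 66 and 51 members. For named members, 946 of 954 alternative values kept their call, 8 fell under the 2-fold limit with 1 library left out, and 0 changed direction. Depth limits the members near 2 CPM in LB, for which an organ at 1% of the LB level lies under the level of 3 counts.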
